A study of Rattus norvegicus with 16 samples.

Results

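Livers of male SD rats given xylazine at 20 mg/kg were compared with livers of rats given normal saline. Xylazine is a veterinary sedative that activates alpha-2 adrenergic receptors. The members are 8 of the 16 liver libraries of the study, 4 a group, chosen by the treatment in their labels, and the comparison runs over all 12732 of 17544 listed genes that passed a filter on low counts. The labels give rats of 160 to 200 g, 7 days of acclimatisation and intraperitoneal injections over 28 days, and no age. Of 40 rats in the study, 4 livers a group were sequenced, from 50 mg of tissue each. The other libraries came from rats given 10 or 40 mg/kg, also 4 a group. Each library is taken as the liver of a separate rat, so the tests measure the spread between animals. The stated purpose of the study was to investigate liver injury by xylazine, and the comparison with saline asks which liver genes differ at the middle dose.

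As background, the liver makes fatty acids from carbohydrate carbon. Citrate is cleaved to acetyl-CoA, which is carboxylated, built up to palmitate, elongated, desaturated and esterified to glycerol, with NADPH from malic enzyme and the pentose phosphate pathway. The transcription factor SREBP-1c, encoded by Srebf1, switches on most enzymes of this route, is itself raised by insulin and by the oxysterol receptor LXR, and works beside the carbohydrate-responsive factor ChREBP, encoded by Mlxipl. In the fasting state the liver turns to gluconeogenesis, amino acid breakdown and fatty acid oxidation.

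Library totals lay between 16511300 and 16956900 expected counts over the 8 livers, so depth was nearly equal. Hepatocyte markers made up most of the marker signal in both groups, with a summed level of 168700 to 212400 CPM (counts scaled to the library's size) in saline and 166800 to 206600 CPM at 20 mg/kg. Among the libraries, 2 stood apart. On the first principal component of the 8 livers (24.65% of the variance), 20 mg/kg replicate 3 lay at 36.3 and saline replicate 4 at -38.3, while the other 6 lay between -13.5 and 12.2. On the first component of all 16 livers (14.84%), 20 mg/kg replicates 1 to 3 lay at 14.8, 9.17 and 13.9, and 20 mg/kg replicate 4 lay at -7.24, within the saline range of -21.7 to -4.54. In a bulk liver, fewer cells of a type and less RNA per cell cannot be told apart.

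No gene passed in 20 mg/kg against saline. In edgeR's quasi-likelihood test, 0 of 12732 genes (0%) had an adjusted p under 0.05, and the smallest adjusted p was 0.0741. An unadjusted p under 0.05 was reached by 1162 genes (9.13%), with 540 of them higher (4.24%) and 622 lower (4.89%) at 20 mg/kg. The 2 groups of 4 did not overlap in 579 genes (4.55%), with 291 (2.29%) that were higher and 288 (2.26%) that were lower at 20 mg/kg. DESeq2 on the same counts called 60 of the 12476 genes to which it gave an adjusted p (0.481%), 32 higher (0.256%) and 28 lower (0.224%), while limma-voom called 0. Without 20 mg/kg replicate 4 the edgeR count was 19, 8 higher and 11 lower, and without saline replicate 3 it was 3, among them Srebf1 and Fads2. Leaving out 20 mg/kg replicate 3 and saline replicate 4 together gave 1 gene. For scale, 40 mg/kg against the same saline livers gave 141 passing genes (1.11%) in edgeR and 10 mg/kg gave 0 (0%), with 509 at an unadjusted p under 0.05 and 1 DESeq2 call. The values below are therefore descriptions of differences that did not pass the main test, unless a call by another test is named.

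Of the 34 functional lists, fatty acid synthesis had the highest median log2 fold change. Of the 22 genes on that list, all tested, 21 had a positive log2 fold change against 50.5% of all genes tested, and the median log2 fold change was 0.62 against 0.00 over all genes. Of these, 14 were higher at an unadjusted p under 0.05 and 0 were lower, beside 4.24% and 4.89% of all genes. In 11 of the 22 the 4 treated livers all lay above the 4 saline livers, beside 2.29% of all genes. DESeq2 called 5 of the 22 higher, beside 0.256% of the genes to which it gave an adjusted p. The count of 14 was also 14 without 20 mg/kg replicate 3 or saline replicate 4 alone and 11 without both, and it was 16 without 20 mg/kg replicate 4. A per-animal score, the mean log2 CPM of the 22 genes minus the saline mean, was -0.20, -0.004, 0.26 and -0.06 in saline replicates 1 to 4 and 0.61, 0.72, 0.77 and 0.57 in the 20 mg/kg replicates. The groups did not overlap on this score.

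**Figure D1:**
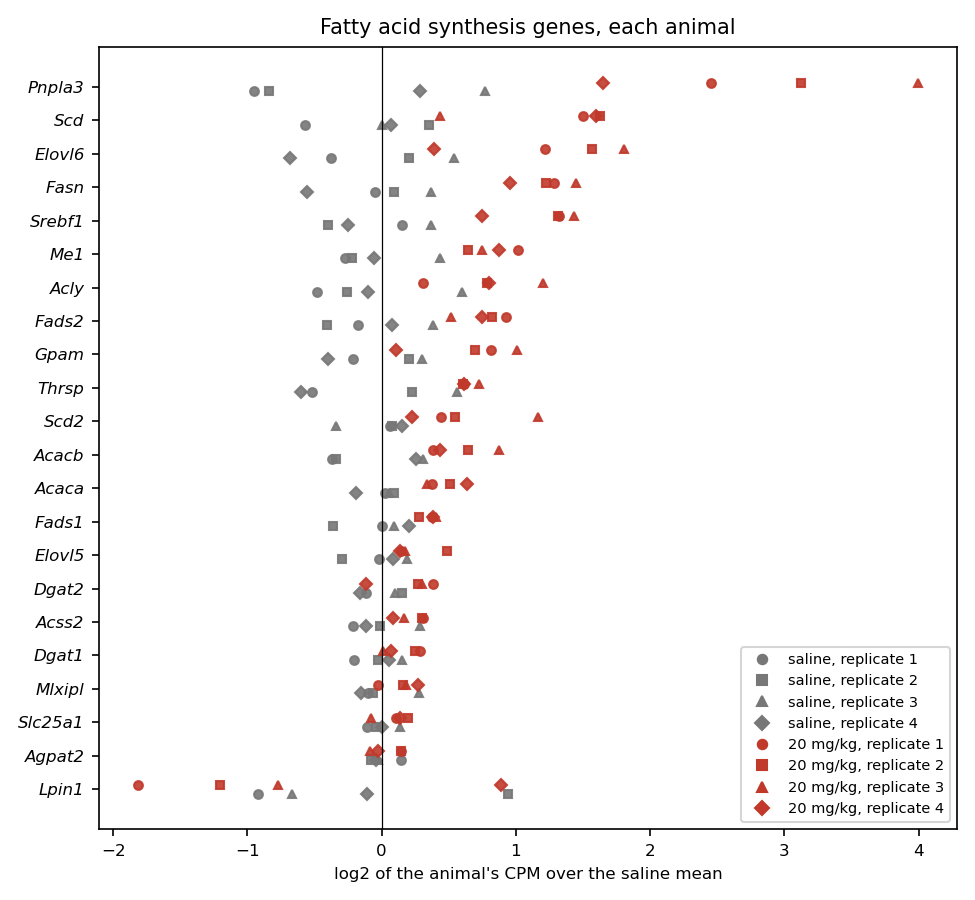
Each row is a gene of the fatty acid synthesis list and each symbol an animal, placed by the log2 of its CPM over the mean of the 4 saline livers, with saline in grey and 20 mg/kg in red. The treated symbols lie right of all grey symbols in 11 of the 22 rows, Pnpla3 spreads most, and in Lpin1 the treated animals lie on both sides of 0.

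Srebf1, the regulator, had the smallest p of all genes. Its level was 203, 139, 236 and 154 CPM in saline replicates 1 to 4 and 457, 455, 494 and 307 CPM in the 20 mg/kg replicates. Every treated liver lay above every saline liver, and replicate 4 was the lowest of the treated. The means were 183 ± 44.7 CPM and 428 ± 82.9 CPM (SD, n = 4), and the log2 fold change was 1.23 ± 0.19 (SE), with an edgeR adjusted p of 0.0741 and a DESeq2 adjusted p of 1.6e-06. ChREBP mRNA did not separate the groups: Mlxipl lay at 247, 254, 323 and 239 CPM in saline and 261, 297, 302 and 321 CPM in treated livers, with a log2 fold change of 0.15 ± 0.11 (SE). The mRNA of the oxysterol receptor, Nr1h3, was at 100.2 to 113 CPM in saline and 112 to 139.7 CPM at 20 mg/kg, with treated replicate 1 inside the saline range.

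The bases before the RefSeq start site are shown for the regulator and for Pnpla3 and Fads2, the list members with the smallest p. Each was higher in every treated liver than in any saline liver. Among treated livers Fads2 was lowest in replicate 3, and Srebf1 and Pnpla3 were lowest in replicate 4. The sequences are from RefSeq, build GRCr8, 5′ to 3′ on the gene's strand, and capitals mark CCAAT or its reverse complement ATTGG, the box bound by the factor NF-Y. Only bases outside the annotated gene are printed. For Srebf1, with 2 start sites in the table, the outermost is shown (chr10:45529165-45529414, minus strand), Pnpla3 lies at chr7:117173278-117173484, plus strand, and for Fads2 the 93 bases at chr1:216172191-216172283, minus strand are shown.
Srebf1: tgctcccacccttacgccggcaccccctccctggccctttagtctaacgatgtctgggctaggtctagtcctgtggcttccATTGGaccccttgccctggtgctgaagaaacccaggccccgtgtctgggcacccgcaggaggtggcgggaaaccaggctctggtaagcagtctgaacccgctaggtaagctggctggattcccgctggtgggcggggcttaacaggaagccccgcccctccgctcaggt
Pnpla3: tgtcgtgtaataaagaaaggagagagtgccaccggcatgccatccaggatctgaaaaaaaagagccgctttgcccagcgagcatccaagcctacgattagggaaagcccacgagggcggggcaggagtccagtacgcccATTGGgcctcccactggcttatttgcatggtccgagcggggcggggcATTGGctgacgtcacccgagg
Fads2: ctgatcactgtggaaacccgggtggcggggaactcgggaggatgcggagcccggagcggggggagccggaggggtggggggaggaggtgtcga
Pnpla3 holds ATTGG at 2 places, Srebf1 at 1 and Fads2 at 0 in these stretches. The window before the other Srebf1 start site, not printed, held CCAAT on either strand at 2 places. Which start site gives SREBP-1c was not examined. Among the list members, 17 genes had windows of 250 upstream bases in the table, 19 windows in all, and 15 of the 19 (78.9%) held CCAAT on either strand, against 35.5% of the 11132 windows of genes tested and 34% of all 33469 windows. The E-box CACGTG, which reads the same on both strands, was in 1 of the 19 windows (5.26%), against 7.86% of the windows of genes tested and 5.59% of all. A match is a description of the letters and not a bound site.

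The enzymes that carry carbon into palmitate were higher in treated livers. Acly, which cleaves citrate to acetyl-CoA, was at 245, 286, 519 and 318 CPM in saline and 423, 588, 787 and 594 CPM at 20 mg/kg. Saline replicate 3 lay above treated replicate 1, so the groups overlapped, with a log2 fold change of 0.81 ± 0.24 (SE, edgeR adjusted p = 0.317). Acaca, the cytosolic acetyl-CoA carboxylase, was at 89.1 to 109 CPM in saline and 129 to 158 CPM at 20 mg/kg, without overlap. Acacb, the carboxylase at the mitochondrion, was at 64.5 to 103 and 109 to 152 CPM, also without overlap. Fasn, which builds palmitate, was at 279, 309, 373 and 197 CPM in saline and 703, 677, 788 and 562 CPM in treated livers. All 4 treated livers exceeded all 4 saline livers, by 2.36-fold in the means, with a log2 fold change of 1.24 ± 0.29 (SE), an edgeR adjusted p of 0.255 and a DESeq2 adjusted p of 0.00562.

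Elongation and desaturation genes followed the same direction. Elovl6, which elongates palmitate, was at 7.57, 11.3, 14.3 and 6.12 CPM in saline and 22.9, 29.1, 34.3 and 12.9 CPM at 20 mg/kg, and treated replicate 4 fell inside the saline range. Scd, the delta-9 desaturase, was at 1147, 2172, 1704 and 1786 CPM and 4812, 5246, 2304 and 5136 CPM. Treated replicate 3 was far below the other treated livers but above all saline livers, and the log2 fold change was 1.36 ± 0.37 (SE, edgeR adjusted p = 0.298; DESeq2 0.0188). Fads2, the delta-6 desaturase of polyunsaturated fatty acids, was at 581, 496, 857 and 691 CPM in saline and 1249, 1158, 938 and 1101 CPM in treated livers. The groups did not overlap, and the log2 fold change was 0.76 ± 0.15 (SE, edgeR adjusted p = 0.193; DESeq2 0.00102). Its neighbour in function, Fads1, the delta-5 desaturase, was at 398 to 589 and 620.5 to 676 CPM, a log2 fold change of 0.36, while Elovl5 overlapped between groups (0.24). Scd2, a second delta-9 desaturase of low level, had a log2 fold change of 0.64.

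Genes that supply NADPH were also higher. Me1, cytosolic malic enzyme, was at 57.5, 59.7, 93.9 and 66.8 CPM in saline and 141, 108, 116 and 128 CPM at 20 mg/kg, without overlap, with a log2 fold change of 0.83 ± 0.24 (SE, edgeR adjusted p = 0.305). Pgd, a dehydrogenase of the pentose phosphate pathway, was at 95.5 to 137 CPM in saline and 139 to 167 CPM in treated livers, without overlap. Tkt, transketolase, was at 178, 226, 209 and 200.4 CPM and 279, 301, 247 and 285 CPM. It did not overlap between groups and had a log2 fold change of 0.45 ± 0.10 (SE), an edgeR adjusted p of 0.193 and a DESeq2 adjusted p of 0.00562.

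The members of glyceride assembly were mixed. Gpam, the mitochondrial acyltransferase that begins glyceride synthesis, was at 135 to 219 CPM in saline and 191 to 358 CPM at 20 mg/kg, with treated replicate 4 inside the saline range. Thrsp, a lipogenic protein induced by thyroid hormone, was at 433, 725, 913 and 409 CPM in saline and 946, 946, 1024 and 947 CPM at 20 mg/kg. The treated livers were within a narrow range just above the highest saline liver. Dgat1 and Dgat2, which complete triacylglycerol synthesis, and Agpat2, of an earlier step, had log2 fold changes of 0.16, 0.22 and 0.05, all with overlap. The citrate carrier Slc25a1 (0.09) and the acetyl-CoA synthetase Acss2 (0.22) also overlapped between groups. Lpin1, a phosphatidate phosphatase and fasting-responsive coactivator, was the only list member with a negative value. It was at 127, 462, 151 and 223 CPM in saline and 68.5, 104, 141 and 446 CPM at 20 mg/kg, so treated replicate 4 was far above its group, and the log2 fold change was -0.34 ± 0.64 (SE).

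Pnpla3, a lipid droplet protein with lipase and acyltransferase activity, had the highest log2 fold change on the list. It was at 11.2, 12.1, 36.9 and 26.3 CPM in saline and 118, 188, 344 and 67.9 CPM in treated livers. The lowest treated liver, replicate 4, was above the highest saline liver, and the treated values themselves spread over a wide range. The log2 fold change was 3.06 ± 0.60 (SE), with an edgeR adjusted p of 0.193 and a DESeq2 adjusted p of 0.000452. In the RefSeq table of assembly GRCr8, Sult4a1 and Pnpla5 lie next to Pnpla3 on 1 side on chromosome 7, and Samm50 and Parvb on the other, with a placeholder gene between. Of these 4 neighbours, Parvb is named for its small p and the other 3 were chosen after their values were seen. Parvb, which links integrins to actin, was at 7.92, 8.33, 9.297 and 10.5 CPM in saline and 17.2, 13.4, 16.6 and 11.9 CPM at 20 mg/kg, without overlap, with a log2 fold change of 0.72 ± 0.14 (SE, edgeR adjusted p = 0.193; DESeq2 0.00562). Pnpla5, another lipase of the family, was at 0.289, 2.04, 2.898 and 1.35 CPM and 7.61, 11.8, 10.1 and 9.96 CPM, a low level at which all treated livers lay above all saline livers. Sult4a1, a sulfotransferase-like gene, was at 0, 0.479, 0.785 and 0.193 CPM and 2.96, 3.08, 8.57 and 1.598 CPM, with saline replicate 1 at 0. Samm50, of the mitochondrial outer membrane assembly machinery, overlapped between groups at 40.9 to 51.8 CPM and 48.3 to 57.3 CPM.

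Outside these lists, Osbpl11 had the smallest p among genes that were higher at 20 mg/kg. Osbpl11, an oxysterol-binding protein homolog, was at 31.7, 44.4, 42.4 and 33.1 CPM in saline and 82.4, 70.9, 88.3 and 47.6 CPM in treated livers, without overlap, with a log2 fold change of 0.93 ± 0.18 (SE, edgeR adjusted p = 0.193; DESeq2 0.00102). Tmem135, a membrane protein of peroxisomes and mitochondria, was at 52.2 to 66.8 and 72.3 to 93.4 CPM. Fam20c, the kinase of secreted proteins, was at 23.4 to 26.8 and 28.3 to 35.99 CPM. For each of them the lowest treated liver lay above the highest saline liver. Ddhd2, a triglyceride and phospholipid lipase, had a log2 fold change of 0.39 and Tpst2, which sulfates tyrosines of secreted proteins, of 0.43. Both had DESeq2 adjusted p values under 0.05 (0.0244 and 0.0183).

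Among genes that were lower at 20 mg/kg, Baiap2l1, an actin and membrane curvature protein, had the smallest p. It was at 23.1, 29.7, 30.6 and 29.7 CPM in saline and 14.6, 14.8, 16.6 and 18.4 CPM in treated livers. All treated livers lay below all saline livers, with a log2 fold change of -0.81 ± 0.13 (SE), an edgeR adjusted p of 0.0741 and a DESeq2 adjusted p of 0.00016. Banp, a nuclear matrix and promoter-binding protein, was at 8.56, 6.53, 5.43 and 7.53 CPM and 2.05, 2.897, 3.79 and 4.73 CPM, with a log2 fold change of -1.06 ± 0.21 (SE). Fam126b, of the complex that places a phosphatidylinositol 4-kinase at the plasma membrane, was at 82.5 to 106 and 46.7 to 75.8 CPM. Pnpla7, a lysophospholipase, was at 107 to 147 CPM in saline and 90.2 to 96.3 CPM at 20 mg/kg. In Wdfy2, Zfp764, Cept1, Rsrc2, Rnd2 and Gpbp1l1 the groups did not overlap either, with log2 fold changes of -0.49, -0.69, -0.30, -0.28, -0.54 and -0.37. Cept1 makes phosphatidylcholine and phosphatidylethanolamine, Rnd2 is a small GTPase and Wdfy2 is an endosomal protein. These 6 and the 4 above had DESeq2 adjusted p values between 0.00016 and 0.032.

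**Figure D2:**
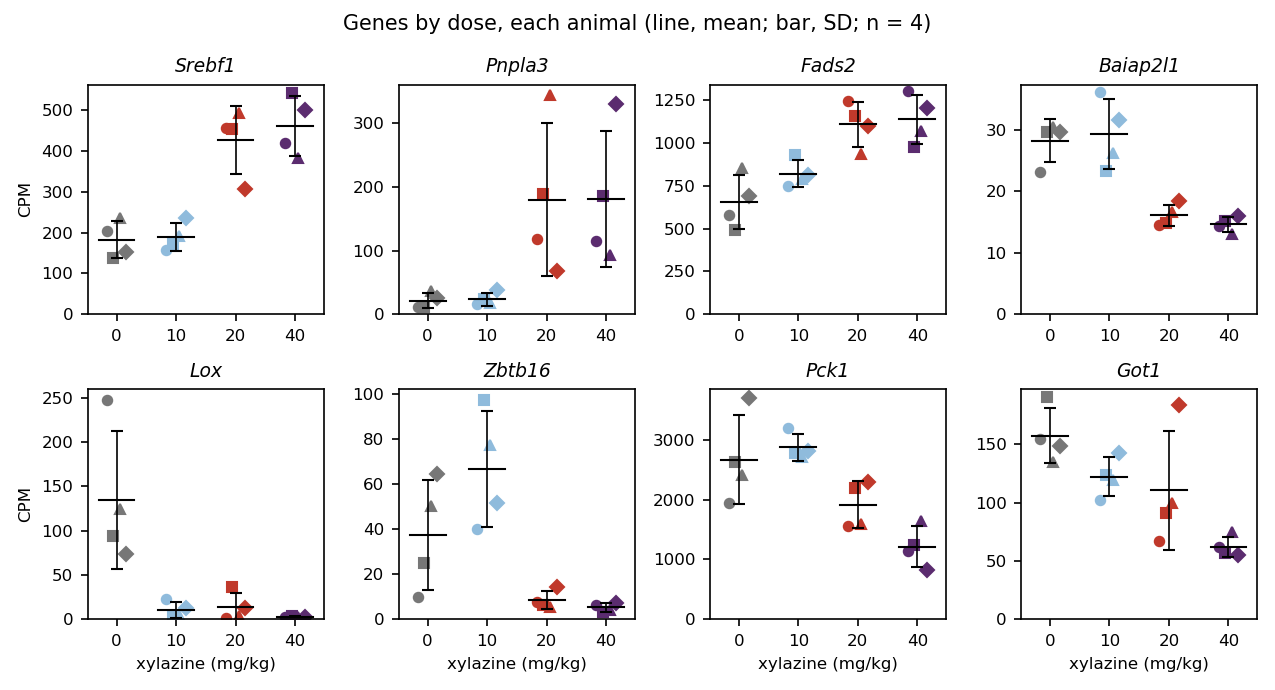
CPM of 8 genes at 0, 10, 20 and 40 mg/kg, each panel on its own linear axis from 0, with a circle, square, triangle and diamond for replicates 1 to 4, a line for the mean and a bar for the SD (n = 4). Srebf1, Pnpla3 and Fads2 are higher and Baiap2l1 lower at 20 than at 0 mg/kg without overlap, Lox is low at every dose, and the diamond of Got1 at 20 mg/kg sits among the saline values.

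Of 19 glycolysis genes tested, 17 had a positive log2 fold change, against 50.5% of all genes, and the median was 0.17. At an unadjusted p under 0.05, 5 were higher and 0 lower, beside 4.24% and 4.89% of all genes. Pklr, liver pyruvate kinase, was at 338, 305, 317 and 266 CPM in saline and 432, 473, 353 and 483 CPM at 20 mg/kg, without overlap, with a log2 fold change of 0.51 ± 0.15 (SE, edgeR adjusted p = 0.305). Gpi, phosphoglucose isomerase, was at 63.6 to 93.9 and 96.6 to 107 CPM, and Pgk1, phosphoglycerate kinase, had a log2 fold change of 0.19. The number with a positive value was 12 of 19 without 20 mg/kg replicate 3. The count of 5 ranged from 2 to 5 over the removals of 1 library and was 2 without saline replicate 4 or 20 mg/kg replicate 2. Of 18 tested targets of the oxidative stress factor NRF2, 16 were positive against 50.5% of all genes (median 0.15), with 5 higher and 0 lower, beside 4.24% and 4.89%. The count of 5 was 3 without 20 mg/kg replicate 1 or 3 or saline replicate 1 or 2. Without 20 mg/kg replicate 1, 13 were positive, and the median was 0.23 without saline replicate 1 and 0.24 without 20 mg/kg replicate 2. Among the 5 were Tkt, Pgd, Me1 and Gclc. Gclc, the catalytic subunit for glutathione synthesis, was at 115, 108, 109 and 124 CPM and 180.1, 121, 168 and 126 CPM, with treated replicates 1 and 3 high and 2 and 4 near saline.

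Subunits of the respiratory chain encoded in the nucleus had small positive values in 38 of 44, against 50.5% of all genes (median 0.10), and 5 were higher at an unadjusted p under 0.05, beside 4.24%. Atp5mc1, a subunit of the ATP synthase ring, was at 86.5 to 94.7 CPM in saline and 103 to 125 CPM at 20 mg/kg, without overlap. Atp5po, a stalk subunit, had a log2 fold change of 0.19. The count of 5 was 1 without 20 mg/kg replicate 2, 2 without 20 mg/kg replicate 1, saline replicate 1 or saline replicate 4, 3 without saline replicate 2 or 10 mg/kg replicate 4, 10 without saline replicate 3 and 11 without 20 mg/kg replicate 3. Ribosomal protein genes were positive in 52 of 61, against 50.5% of all genes, with a median of 0.05, and 2 were higher, below the 4.24% of all genes.

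Sterol genes did not follow the fatty acid genes. Cholesterol synthesis and uptake, the program of SREBP-2, had a median of 0.02 over 24 genes. At an unadjusted p under 0.05, 1 was higher and 0 lower, beside 4.24% and 4.89% of all genes. The higher gene, Nsdhl, a demethylating dehydrogenase of the route, was at 395 to 495 and 488 to 556 CPM. The list of LXR targets (10 genes) also holds Scap and the receptor genes Nr1h3 and Nr1h2. Of the 10, 2 were higher (Lpcat3 and Nr1h3) and 2 lower (Abcg5 and Abcg8), beside the same shares. Lpcat3, which puts polyunsaturated chains into phospholipids, was at 70.6, 71.8, 89.3 and 81.9 CPM in saline and 107, 106, 98.3 and 93.4 CPM at 20 mg/kg, without overlap, with a log2 fold change of 0.37 ± 0.09 (SE, edgeR adjusted p = 0.263; DESeq2 0.0495). The sterol exporters went the other way. Abcg5 was at 15.8, 10.4, 6.88 and 12.8 CPM in saline and 7.19, 1.29, 1.87 and 1.72 CPM in treated livers. Treated replicate 1 overlapped the saline range and the other 3 lay well below it, with a log2 fold change of -1.93 ± 0.66 (SE, edgeR adjusted p = 0.41). Its partner Abcg8 was at 11.9, 8.21, 4.47 and 11.3 CPM and 6.16, 1.23, 0.879 and 0.369 CPM, with the same animal high.

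On lipid droplets, 3 of 13 tested genes were higher and 1 lower at an unadjusted p under 0.05, beside 4.24% and 4.89% of all genes. Plin2, the droplet coat protein of hepatocytes, was at 149.5, 192, 227 and 160.2 CPM in saline and 284, 288, 265 and 221 CPM at 20 mg/kg, with treated replicate 4 just inside the saline range and a log2 fold change of 0.54 ± 0.16 (SE). Mgll, monoacylglycerol lipase, was at 67.9, 71.7, 71.6 and 73.5 CPM and 116, 100.3, 89.6 and 98.4 CPM, without overlap. Cideb, which serves lipidation of very low density lipoprotein, had a log2 fold change of 0.27. Mitochondrial fatty acid oxidation and ketogenesis had a median of 0.03 over 20 genes, 0 higher and 1 lower, and peroxisomal oxidation a median of 0.07 over 16 genes, 1 higher. That gene, Ehhadh, the bifunctional enzyme of peroxisomes, was at 250.2 to 289.6 CPM in saline and 285 to 463 CPM at 20 mg/kg.

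Genes of amino acid breakdown and the urea cycle leaned downward in 27 of 36, against 49.5% of all genes (median -0.09). At an unadjusted p under 0.05, 2 were lower and 0 higher, beside 4.89% and 4.24% of all genes. Asl, the argininosuccinate lyase of the urea cycle, was at 174, 223, 232 and 232 CPM in saline and 142, 165, 174 and 161 CPM at 20 mg/kg. Its highest treated liver was just below the lowest saline liver, and its log2 fold change was -0.42 ± 0.12 (SE, edgeR adjusted p = 0.28). Got1, cytosolic aspartate aminotransferase, was at 155, 190.5, 135 and 148 CPM in saline and 66.9, 91.03, 99.6 and 184 CPM at 20 mg/kg. Replicates 1 to 3 lay below all saline livers and replicate 4 among the highest, and Got1 was among the 19 genes that passed without that animal. Sds, serine dehydratase, showed the same animal apart, at 16.6, 30.2, 33.8 and 32.9 CPM in saline and 5.92, 11.6, 15.2 and 34.4 CPM at 20 mg/kg.

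Pck1, the rate-limiting enzyme of gluconeogenesis, was at 1941, 2630, 2411 and 3705 CPM in saline and 1564, 2197, 1588 and 2304 CPM in treated livers. The groups overlapped, and the log2 fold change was -0.48 ± 0.21 (SE, edgeR adjusted p = 0.518). It was the only 1 of 13 gluconeogenesis genes lower at an unadjusted p under 0.05, beside 4.89% of all genes. The list's median was 0.01. Of bile acid genes, Akr1d1, the delta-4-3-ketosteroid reductase, was at 778, 1309, 1286 and 1145 CPM in saline and 1755, 2528, 1841 and 1767 CPM in treated livers, without overlap, with a log2 fold change of 0.80 ± 0.27 (SE). Cyp8b1, the sterol 12-alpha-hydroxylase, was at 229, 215, 410.3 and 246 CPM and 131, 174, 159 and 223 CPM, with treated replicate 4 inside the saline range. The list of 21 bile acid genes had a median of 0.02. Among 31 cytochrome P450 and drug metabolism genes 1 was lower and 0 higher, against the 4.89% and 4.24% of all genes. That gene, Cyp1a2, was at 2119, 1820, 1121 and 643 CPM in saline and 733, 839, 942 and 828 CPM at 20 mg/kg, with overlap. Ca3, carbonic anhydrase 3, an abundant protein of male rat liver, was at 3768 to 5830 CPM in saline and 2698 to 3834 CPM at 20 mg/kg, with overlap.

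Clock genes were mixed in direction. Of 18 circadian genes, 4 were higher and 2 lower at an unadjusted p under 0.05, beside 4.24% and 4.89% of all genes. Hlf, a clock output factor of the PAR bZIP family, was at 21.1, 21.2, 20.5 and 19.4 CPM in saline and 33.6, 28.97, 30.7 and 26.5 CPM at 20 mg/kg, without overlap, with a log2 fold change of 0.54 ± 0.13 (SE, edgeR adjusted p = 0.255; DESeq2 0.032). Nr1d1, the repressor REV-ERB-alpha, was at 7.86, 2.16, 5.98 and 2.64 CPM and 1.75, 0.863, 0.659 and 1.66 CPM, lower in every treated liver, and its paralog Nr1d2 had a log2 fold change of -0.71. Among 18 glucocorticoid-induced genes, 2 were higher and 2 lower, beside the same shares. Zbtb16, a zinc finger factor, was at 9.65, 25.2, 50.5 and 64.4 CPM in saline and 7.79, 6.35, 5.44 and 14.1 CPM in treated livers. Saline replicate 1 lay inside the treated range, with a log2 fold change of -2.15 ± 0.53 (SE, edgeR adjusted p = 0.277; DESeq2 0.0183). Sgk1, a kinase, was at 13.01, 23.02, 13.7 and 18.7 CPM in saline and 94.9, 26.2, 70.8 and 11.4 CPM at 20 mg/kg, high in treated replicates 1 and 3 and lowest of all 8 livers in replicate 4. Cebpd, an acute-phase factor, was at 2.08 to 4.26 CPM in saline and 4.23 to 7.32 CPM at 20 mg/kg.

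More genes of the insulin and growth hormone lists were negative than positive. Of 16 insulin signalling and feedback genes, 11 had a negative log2 fold change (median -0.08), against 49.5% of all genes. Of 17 growth hormone axis genes, 11 were negative (median -0.20). Igfbp1, an insulin-repressed binding protein of IGF-1, was at 21.7, 55.6, 109 and 82.1 CPM in saline and 31.4, 322, 168 and 279 CPM at 20 mg/kg, with treated replicate 1 near the low end of saline and the other 3 above all saline livers. It was the only 1 of 16 insulin signalling and feedback genes with an unadjusted p under 0.05, beside 9.13% of all genes. Igf1 itself was at 1737 to 1901 CPM and 1408 to 1858 CPM (-0.20 ± 0.14 on the log2 scale, SE). Mup4, a major urinary protein that follows growth hormone, was lower, at 38.5 to 55.8 CPM in saline and 26.3 to 40.8 CPM in treated livers. Mup4 was the only 1 of 17 growth hormone axis genes with an unadjusted p under 0.05, beside the same 9.13%.

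Lox, lysyl oxidase, which crosslinks collagen, had the lowest log2 fold change among matrix genes. It was at 247, 94.3, 125 and 73.5 CPM in saline and 1.75, 36.7, 3.96 and 12.97 CPM in treated livers. Every treated liver was below every saline liver, but treated replicate 2 was many times the lowest, and the log2 fold change was -3.29 ± 0.83 (SE, edgeR adjusted p = 0.28; DESeq2 0.0183). The level was also low at 10 mg/kg, 23.03, 2.79, 4.62 and 12.3 CPM, and at 40 mg/kg, 2.46, 3.19, 2.13 and 2.45 CPM. Of 28 matrix and fibrosis genes, 5 were higher and 1, Lox, lower at an unadjusted p under 0.05, beside 4.24% and 4.89% of all genes. Ccn2, a growth factor of the fibrotic response, was at 3.41, 5.16, 5.37 and 3.15 CPM and 5.495, 13.7, 8.24 and 10.02 CPM, and Col3a1, a fibrillar collagen, at 172 to 209 CPM and 212 to 297 CPM, both without overlap. Markers of stellate cells, the main collagen source of liver, were not shifted as a list: 6 of 12 were positive, with a summed level of 229.7 to 264 CPM in saline and 225.6 to 311.4 CPM at 20 mg/kg.

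The class II genes of antigen presentation shown here separated 1 animal rather than the groups. Cd74, the invariant chain of class II, was at 81.6, 91.4, 115 and 62.8 CPM in saline and 75.7, 89.98, 604 and 111 CPM at 20 mg/kg. RT1-Da was at 34.8, 47.4, 43.5 and 27.2 CPM and 42.4, 43.9, 260 and 48.3 CPM, and RT1-Ba at 21.3, 19.9, 22.1 and 14.1 CPM and 13.6, 22.5, 181 and 22.1 CPM. In each, treated replicate 3 was several times every other liver, and replicates 1, 2 and 4 lay within or near the saline range. RT1-Db1 had the same shape (18.3, 28.4, 137 and 24.6 CPM at 20 mg/kg). Over the list of 25 genes, 5 were higher and 4 lower at an unadjusted p under 0.05, beside 4.24% and 4.89% of all genes. Without replicate 3, 0 were higher. The class I gene RT1-CE13 was lower, at 42.4, 49.7, 20.3 and 27.1 CPM and 12.1, 9.43, 21.2 and 10.4 CPM, with a log2 fold change of -1.39 ± 0.38 (SE, edgeR adjusted p = 0.305; DESeq2 0.0263). It belongs to a family of near-identical copies that differ between rats, so its counts are uncertain.

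**Figure D3:**
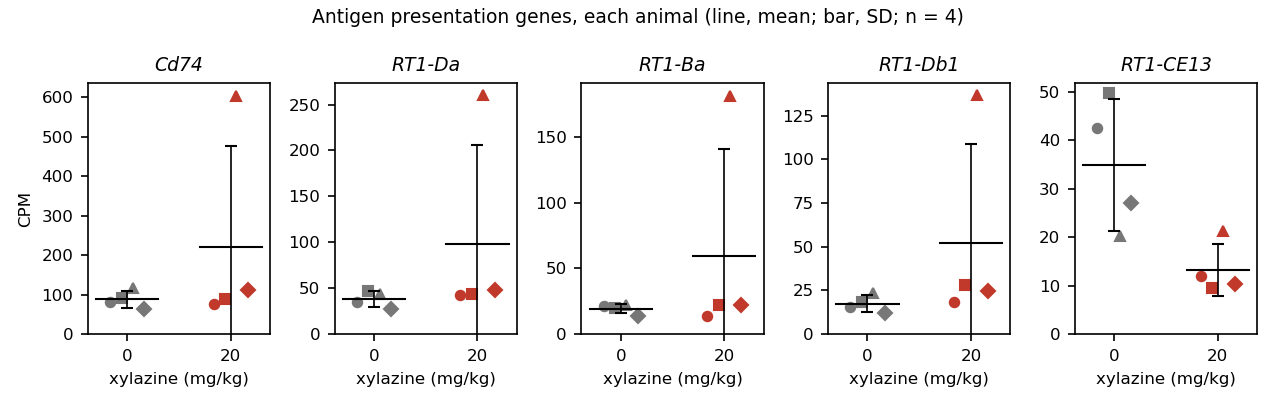
CPM of 5 antigen presentation genes in the 4 saline (0) and 4 treated (20 mg/kg) livers, each panel on its own linear axis from 0, with a circle, square, triangle and diamond for replicates 1 to 4, a line for the mean and a bar for the SD. The red triangle, replicate 3, is far above the rest in the 4 class II panels, while RT1-CE13 is lower in 3 of 4 treated livers than in any saline liver.

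Markers of macrophages were high in the same animal. All 13 Kupffer cell and macrophage markers had a positive log2 fold change (median 0.26), with 0 at an unadjusted p under 0.05, and their summed level was 411.7 to 779.7 CPM in saline and 532.2 to 1174 CPM at 20 mg/kg. The per-animal score of that list was -0.04, 0.21, 1.06 and -0.16 in treated replicates 1 to 4 and -0.03, 0.46, 0.03 and -0.46 in saline. Of T and NK cell markers 8 of 16 were tested, with a summed level of 21.95 to 53.35 CPM and 30.8 to 78.12 CPM, and Cd3d, Cd3e and Cd3g had too few counts to test. Mesothelial markers were positive in 9 of 10, with a median of 0.84, higher than that of any functional list. Of these markers 1 was higher at an unadjusted p under 0.05, beside 4.24% of all genes. They summed to 13.16 to 50.98 CPM in saline and 47.89 to 71.81 CPM at 20 mg/kg. Their best marker by p, Gpm6a, was at 15.96, 15.9, 1.27 and 16.99 CPM and 29.6, 31.7, 30.6 and 21.3 CPM, with saline replicate 3 near 0. Neutrophil markers summed to at most 3.956 CPM in any of the 8 livers. The part of cell content in the gene differences was not tested, but the fatty acid synthesis count without replicate 3 is given above.

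Counts for lists of injury and stress genes stand beside 4.24% higher and 4.89% lower at an unadjusted p under 0.05 over all genes. Of 22 acute phase genes 11 had a positive value, with 1 lower and 0 higher, and Crp, C-reactive protein, was at 1948 to 2314 CPM and 1789 to 2134 CPM. The unfolded protein response (27 genes) had 1 higher and 2 lower, heat shock genes (15) 0 and 2, p53 targets and apoptosis genes (18) 0 and 3 (Mdm2, Phlda3 and Mcl1, with log2 fold changes of -0.30, -0.39 and -0.21), and interferon-induced genes (28) 1 and 1. Coagulation and complement genes (32) had 0 higher and 2 lower, and ferroptosis and iron genes (16) 0 and 0. The lower counts of the unfolded protein, heat shock, p53 and coagulation lists are above the share of all genes. Each of these counts rests on 2 or 3 genes. Among 16 inflammation genes, Il1b, a cytokine, was at 3.35, 3.24, 2.48 and 3.15 CPM in saline and 3.68, 7.15, 9.78 and 5.902 CPM at 20 mg/kg, without overlap, and Nlrp12, a receptor that restrains NF-kappaB signalling, was at 210.5, 181, 149 and 227 CPM and 110, 122, 94 and 172 CPM, with replicate 4 inside the saline range.

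Of the alpha adrenergic receptors, the class xylazine acts on, only Adra1b and Adra2b had enough counts to test, and their groups overlapped. Adra1b was at 58.3 to 76.5 CPM in saline and 52.4 to 64.5 CPM at 20 mg/kg. Of the alpha-2 receptors only Adra2b could be tested, at 5.78, 6.47, 8.57 and 6.18 CPM in saline and 7.97, 5.36, 4.12 and 5.29 CPM at 20 mg/kg, with a log2 fold change of -0.25 ± 0.30 (SE). Adra2a had at most 3 and Adra2c at most 2 expected counts in any of the 8 livers. Of 21 tested genes of adrenergic and cyclic AMP signalling, 0 were higher and 1 lower at an unadjusted p under 0.05. The shares of all genes were 4.24% and 4.89%. The lower gene was Pde4d, a cyclic AMP phosphodiesterase, at 11.9 to 19.2 CPM and 7.58 to 14.3 CPM. Among 18 retinoid genes, Aldh1a1, which makes retinoic acid, was at 26.7, 69.5, 30.9 and 38.2 CPM in saline and 96.02, 70.1, 76.6 and 122 CPM at 20 mg/kg, and Rarb, a retinoic acid receptor, had a log2 fold change of 0.68.

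**Figure D4:**
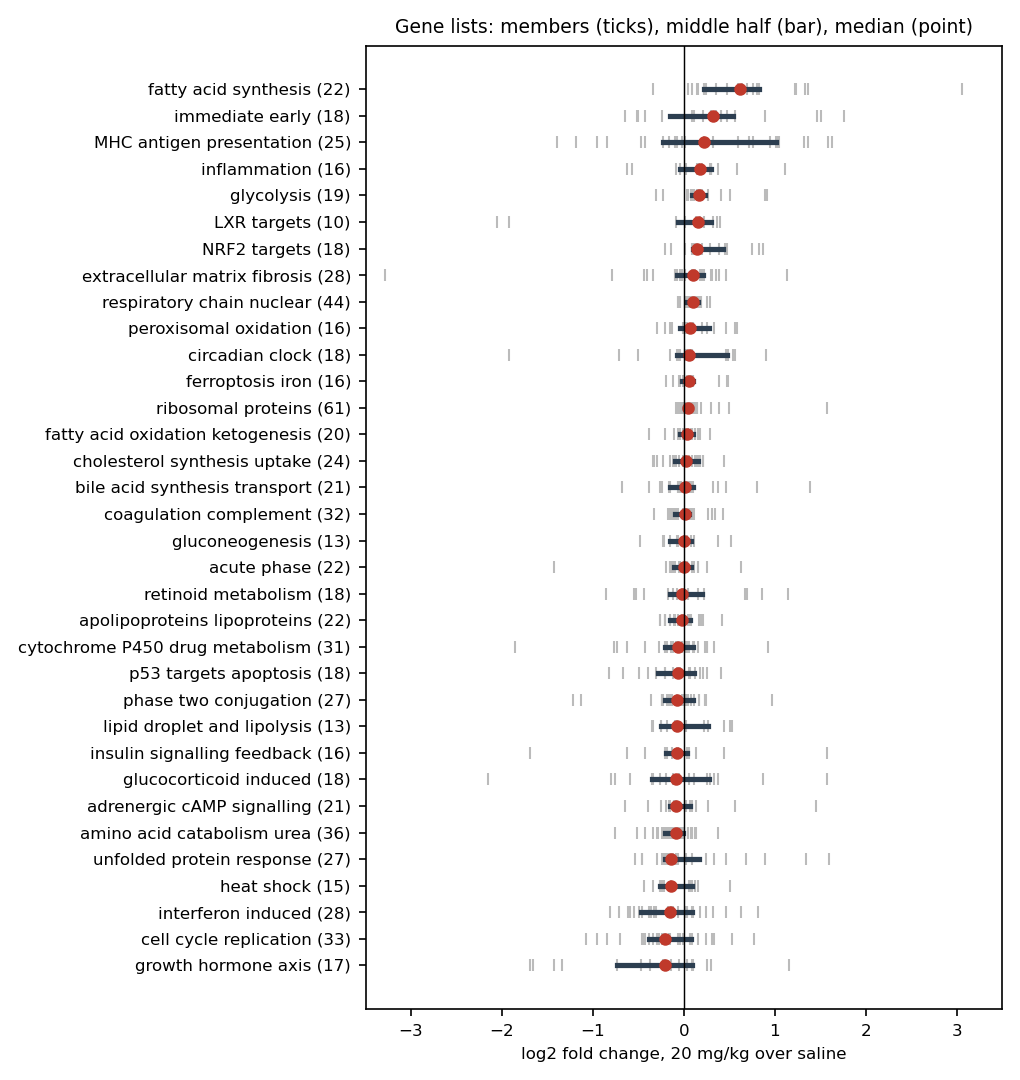
Log2 fold change of 20 mg/kg over saline for 34 gene lists, with a tick for each tested member, a bar from the lower to the upper quartile, a red point for the median and the number tested in parentheses. The vertical line is the median of all 12732 genes (0.00). Only fatty acid synthesis, at 0.62, has a median above 0.5, and every other list median lies between -0.20 and 0.32.

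Against 40 mg/kg, which asks whether the liver differs further at the next dose, again no gene passed. In edgeR 0 of 12732 genes (0%) had an adjusted p under 0.05, with 688 (5.4%) at an unadjusted p under 0.05. Of these 340 were higher (2.67%) and 348 lower (2.73%) at 40 mg/kg. DESeq2 called 8 and gave no adjusted p to 9875 genes. The fatty acid synthesis genes did not separate these doses: their median log2 fold change from 20 to 40 mg/kg was 0.05, with 1 higher and 1 lower. Srebf1 was at 457, 455, 494 and 307 CPM at 20 and 419.7, 543, 383 and 502 CPM at 40 mg/kg, a log2 fold change of 0.11 with a 95% interval of -0.28 to 0.50. The interval was -1.17 to 1.20 for Pnpla3 and -0.44 to 0.79 for Fasn. Genes of smallest p that were higher at 40 mg/kg were Arl5a, a small GTPase of the Golgi (74.3 to 80.8 against 94.4 to 114 CPM), Slc6a13, a GABA and taurine carrier (149.9 to 180.3 against 200 to 225 CPM), and Tp53i13. Those that were lower were Rnf138, a ubiquitin ligase (10.9 to 12.9 against 8.39 to 9.46 CPM), Lrrc45 and Ptprn.

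Several genes that were lower in most 20 mg/kg livers than in saline had lower values again at 40 mg/kg, though none passed. Both comparisons share the 20 mg/kg livers, and these genes were set side by side after their values were seen. Got1 was at 62.1, 56.7, 74.5 and 54.8 CPM at 40 mg/kg, below 20 mg/kg replicates 2 to 4 in every liver, with a log2 fold change from 20 to 40 mg/kg of -0.83 ± 0.24 (SE, edgeR adjusted p = 0.85). Sds was at 3.17, 6.49, 4.39 and 2.74 CPM (-1.998 ± 0.57, SE), Pck1 at 1148, 1237, 1647 and 828 CPM (-0.66 ± 0.21) and Cyp8b1 at 53.7, 61.6, 120.2 and 94.7 CPM (-1.06 ± 0.32). Mcm10, a replication initiation factor, was at 12.6, 12.2, 8.93 and 21.2 CPM in saline, 4.47, 5.55, 6.04 and 14.4 CPM at 20 mg/kg and 2.64, 3.13, 3.06 and 3.21 CPM at 40 mg/kg, and again only treated replicate 4 was at the saline level. Ca3 was at 2698 to 3834 CPM at 20 and 1371 to 2346 CPM at 40 mg/kg, without overlap, and was among the 8 DESeq2 calls. Nlrp12 had a log2 fold change of -0.70 and Lox of -2.43. The value of Lox was -1.27 without 20 mg/kg replicate 2, and that of Got1 was -0.47 without 20 mg/kg replicate 4. Acot4, a peroxisomal thioesterase, was higher at 40 mg/kg, at 15.2 to 23.3 CPM against 26.7 to 37.2 CPM, and 4 of 16 peroxisomal oxidation genes were higher and 0 lower at an unadjusted p under 0.05, beside 2.67% and 2.73% of all genes.

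From 10 to 20 mg/kg no gene passed either. In edgeR 0 of 12732 (0%) had an adjusted p under 0.05 and 985 (7.74%) an unadjusted p under 0.05, 427 higher (3.35%) and 558 lower (4.38%) at 20 mg/kg. DESeq2 called 35. The smallest edgeR adjusted p was 0.0546, shared by Baiap2l1, Srebf1, Fam20c and Dusp3. Srebf1 was at 158, 171, 193 and 236 CPM at 10 mg/kg, within or near the saline range, and its log2 fold change from 10 to 20 mg/kg was 1.17 ± 0.19 (SE). Baiap2l1 was at 36.2, 23.4, 26.2 and 31.6 CPM at 10 mg/kg (-0.87 ± 0.13, SE). Dusp3, a dual-specificity phosphatase, was at 35.6 to 43.9 CPM at 10 and 55.8 to 65.7 CPM at 20 mg/kg. Zbtb16 was at 39.9, 97.5, 77.6 and 51.9 CPM at 10 mg/kg, above every 20 mg/kg liver, as was Pnpla7 (117 to 153 CPM). Of the 22 fatty acid synthesis genes, 14 were higher and 0 lower from 10 to 20 mg/kg, with a median of 0.45, while their median for 10 mg/kg against saline was 0.04. Among them Pnpla3 was at 15.5, 24.4, 17.1 and 37.3 CPM, Fasn at 216, 238, 399 and 244 CPM, Acly at 258, 235, 276 and 278 CPM and Elovl6 at 7.31, 5.21, 8.05 and 8.13 CPM in the 10 mg/kg livers.

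Cell cycle and replication genes were lower at 20 than at 10 mg/kg. Of 33 tested, 18 were lower and 0 higher at 20 than at 10 mg/kg at an unadjusted p under 0.05, beside 4.38% and 3.35% of all genes, and the median log2 fold change was -0.75. Against saline the same list had a median of -0.20 at 20 mg/kg and 0.66 at 10 mg/kg. At 20 mg/kg 1 was lower and 0 higher than in saline, beside 4.89% and 4.24% of all genes. Top2a, a topoisomerase of dividing cells, was at 5.897, 7.82, 20.4 and 6.399 CPM at 10 mg/kg and 2.54, 1.66, 5 and 3.07 CPM at 20 mg/kg. Rrm2, which makes deoxyribonucleotides, was at 8.29, 15.6, 33.6 and 10.3 and 5.92, 3.27, 4.78 and 5.59 CPM, Aurkb, a mitotic kinase, at 1.597, 1.8, 4.91 and 1.87 and 0.302, 0.3698, 1.15 and 0.615 CPM, and Mki67 at 5.22, 10.4, 16.9 and 6.799 and 4.29, 3.82, 8.46 and 3.63 CPM. In each gene 10 mg/kg replicate 3 was the highest, and without that animal 7 of the 33 were lower and the median was -0.46. The list score lay at 0.02, 0.60, 1.29 and 0.30 at 10 mg/kg and -0.12, -0.43, 0.21 and -0.12 at 20 mg/kg.

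**Figure D5:**
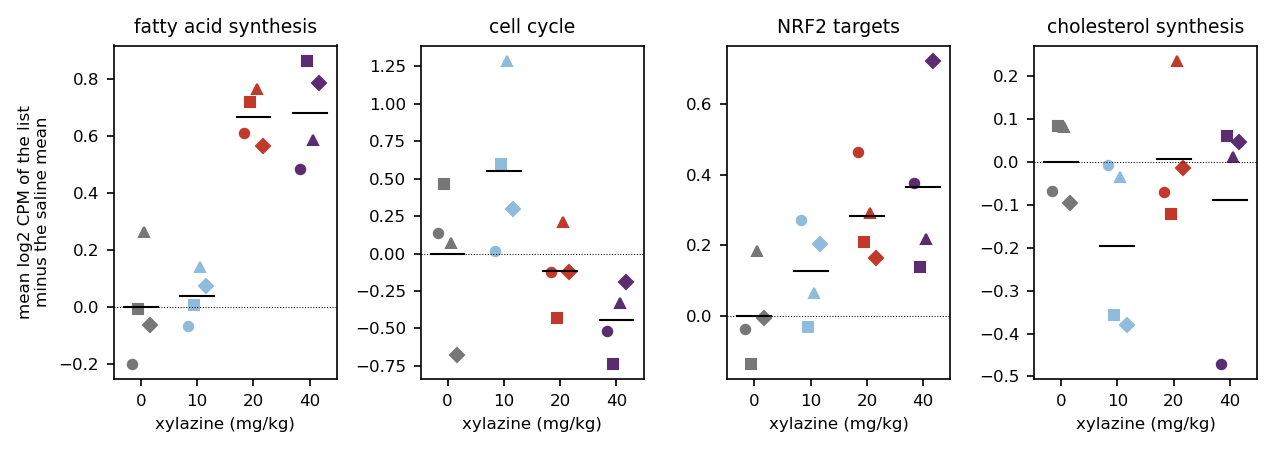
Per-animal list scores (mean log2 CPM of the tested members minus the saline mean) at 0, 10, 20 and 40 mg/kg for 4 lists, each panel on its own axis, with a circle, square, triangle and diamond for replicates 1 to 4 and a line for the mean. Fatty acid synthesis scores at 20 and 40 mg/kg are all above those at 0 and 10 mg/kg, the cell cycle score is highest in 10 mg/kg replicate 3, and the cholesterol synthesis scores at 0 and 20 mg/kg overlap.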

How the data were processed

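RNA of 16 rat livers was sequenced, and the deposited table holds expected counts and TPM per gene that the authors computed; Bowtie2, RSEM and DESeq2 and the build mRatBN7.2 are named in the submitters' processing notes, with no versions or roles. A further 32 per-sample columns and 16 columns of averages were not used. Expected counts were rounded to whole numbers. Genes were kept with edgeR 4.0.16 (filterByExpr, minimum count 10 and total 15), scaled by TMM, and tested with the quasi-likelihood test on all 16 libraries, with Benjamini-Hochberg adjustment over 12732 genes and a threshold of 0.05. CPM are TMM-scaled counts, standard errors come from the test statistic, and R 4.3.3, limma 3.58.1 and DESeq2 1.42.0 were used for the alternatives. Those were other scalings and filters, TPM values above a minimum of 1 with pseudocounts of 1 and 0.1, a replicate block, and removal of each library. Of 17544 gene numbers 17324 were found in the RefSeq table, and 711 genes tested had placeholder symbols, which were not named.

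The members and the gene lists were chosen with earlier results of these data known. Genes are named where they were the 10 higher or 10 lower with the smallest p and at least 5 CPM, among the 3 smallest p of a list, the 3 in each direction of the dose comparisons, or in a fixed set. Other named genes were chosen after their values were seen, among them most enzymes of fatty acid synthesis, Gclc, the class II genes and the adrenergic receptors. Some genes that the rule would name are not reported here.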

Additional observations from a re-analysis of the deposited data

Results flagged for a closer look

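In 22 of 248 groups of 4 livers examined, the highest or lowest animal stood apart, with a gap to its nearest neighbour that passed Dixon's critical share of the group's range. Chance alone flags about 1 in 20 groups. Of the 22, 7 were 20 mg/kg replicate 3, 3 were saline replicate 3 and 3 were 10 mg/kg replicate 3.

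In 20 mg/kg replicate 3, class II genes were high. Cd74 was at 603.5 CPM against at most 110.7 CPM in the other 3 treated livers, RT1-Da at 260 CPM against at most 48.3, RT1-Ba at 181 CPM against at most 22.5 and RT1-Db1 at 136.7 CPM against at most 28.4. The antigen presentation list score was 1.088, against -0.17 to -0.16 in the others. In the same animal Scd was low at 2304 CPM, and Thrsp at 1024 CPM was above a narrow group.

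Of the remaining treated livers, replicate 1 had the highest Abcg5 (7.186 CPM) and Abcg8 (6.16 CPM). Replicate 2 had the highest Akr1d1 (2528 CPM) and Elovl5 (776.7 CPM). Replicate 4 had the highest Mcm10, at 14.45 CPM against 4.47 to 6.04 CPM.

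Among saline livers, replicate 3 was apart in Pgd (136.9 CPM), Cyp8b1 (410.3 CPM) and Gpm6a, where it was low at 1.268 CPM. Replicate 1 was low in Asl (173.9 CPM) and Baiap2l1 (23.13 CPM), replicate 2 was high in Tmem135 (66.83 CPM) and replicate 4 low in Atp5mc1 (86.51 CPM). At 10 mg/kg, replicate 3 was high in Fasn (398.8 CPM), Top2a (20.36 CPM) and Aurkb (4.911 CPM).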

How the results depend on the processing

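The count of 0 genes passing at 20 mg/kg against saline was also 0 with other scalings, other filters, limma-voom, limma on log2 TPM and the 2 groups alone, and the cause of the changes below was not tested. It was 60 with DESeq2, 2 at an adjusted p under 0.1, from 0 to 19 over 16 removals of 1 library, of which 12 gave 0, and 1 without saline replicate 4 and 20 mg/kg replicate 3, an alternative chosen after seeing the data. From 10 to 20 mg/kg the count of 0 was 1 with no filter, 4 with a filter of 5 CPM in 4 libraries, 35 with DESeq2, 4 at an adjusted p under 0.1, and 0 to 6 over the removals. From 20 to 40 mg/kg it was 8 with DESeq2, 1 with the 2 groups alone, 1 with the replicate block and 0 to 1 over the removals.

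The labels give no pairing of animals by replicate number, so the numbers were not taken as pairs. Same-numbered 20 mg/kg and saline livers had correlations of deviations of 0.0223, -0.00705, 0.119 and 0.279. Differently numbered livers had values from -0.264 to 0.186. With the replicate block 0 genes passed at 20 mg/kg against saline. Of 130 single-gene results, DESeq2 brought 43 past the threshold, removal of 20 mg/kg replicate 4 brought 14 and removal of saline replicate 3 brought 7. Directions reversed for Cd74 (-0.061) and RT1-Ba (-0.12) without saline replicate 4 and 20 mg/kg replicate 3, and for Lpin1 without saline replicate 2 (0.18, with a range of -1.21 to 0.18 over the removals). From 20 to 40 mg/kg, Fasn reversed without 40 mg/kg replicate 2 (-0.22, range to 0.33), Srebf1 without 20 mg/kg replicate 4 (-0.022, range to 0.19), and Pnpla3 with the replicate block (-0.0034) and without 40 mg/kg replicate 4 (-0.45), 20 mg/kg replicate 1 (-0.14) or 20 mg/kg replicate 4 (-0.26, range to 0.54). With 4 livers a group, the number of animals limits the precision.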

Other observations

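Some lists are not described above. Immediate early genes, induced within minutes of a stimulus, had a median log2 fold change of 0.32 over 18 tested genes at 20 mg/kg against saline, with 0 at an unadjusted p under 0.05, and a median of 0.81 at 10 mg/kg against saline. Of 22 apolipoprotein and lipoprotein genes, 1 was higher (Apoa1) and 1 lower (Apob), beside 4.24% and 4.89% of all genes. Apoa1, the main protein of high density lipoprotein, was at 1224, 1312, 1258 and 1455 CPM in saline and 1474, 1677, 2005 and 1849 CPM at 20 mg/kg, and Apob, of very low density lipoprotein, at 4927, 4619, 5260 and 5990 CPM and 4639, 4493, 4177 and 4750 CPM. Of 27 conjugation genes 1 was lower and 0 higher, beside 4.89% and 4.24%. Erythroid markers, of residual blood, summed to 511.7 to 1652 CPM in saline and 289 to 823.5 CPM at 20 mg/kg, with 4 of 5 tested genes negative, and hemoglobin genes share near-identical copies. Sinusoidal endothelial markers were positive in 10 of 13, with 0 at an unadjusted p under 0.05.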
